A study of Mus musculus with 12 samples.

Results

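miR-143 and miR-145 (mmu-miR-143 and mmu-miR-145), a pair of microRNAs (miRNAs, short regulatory RNAs that dampen their target messenger RNAs), were followed across 12 arrays of 3T3-L1 cells, a mouse pre-adipocyte line that forms fat cells when induced. The members were taken by name from the array's own annotation, guide strands only, which gave 2 of the 611 mouse miRNAs on the array. Both were among the 156 miRNAs bright enough to be tested. The arrays carry a single colour (Cy3) and each was hybridised with 0.5 ug of total RNA.

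The study asked how fat cell differentiation and WNT signalling bear on miRNA levels, and its 4 groups held 3 arrays each. Untreated preadipocytes were the starting cells. MDI cells received a medium of a phosphodiesterase inhibitor (IBMX), dexamethasone and insulin for 3 days, insulin alone for 2 days and plain medium for 2 days, up to day 7, and stand in the study for suppressed WNT signalling. Lithium cells received 25 mM lithium chloride, an inhibitor of the kinase GSK3 that stands in the study for active WNT signalling. Lithium plus MDI cells received the lithium salt as well as the differentiation medium. The labels used here give a schedule and an end day for the MDI cells only, so time in culture may differ between any of the groups compared. All 4 groups are the same line, and no label says whether replicate arrays stem from independent cultures. The p-values then reflect only how far these arrays differ among themselves, which may be technical.

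miR-143 and miR-145 are made from neighbouring hairpins of the same long primary transcript, and in the RefSeq annotation (GRCm38.p6) the gene Mir143 lies inside the span of the long non-coding RNA gene Carmn, also named Mir143hg. The pair is best known from smooth muscle and other mesenchymal cells, where serum response factor and its partner myocardin switch on the transcript and both miRNAs favour the contractile state. In fat cell biology miR-143 has been reported to promote the differentiation of preadipocytes, while miR-145 has been reported to restrain it. Because the mature miRNAs are cut from the same transcript but are stable to different degrees, their levels need not move together.

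On the scaled data miR-143 was highest in lithium plus MDI cells, at about 2.07 times its level in lithium cells and 2.16 times its level in preadipocytes. After scaling all 3 lithium plus MDI arrays were above all arrays of both those groups, as was so for 26.3% and 14.1% of the 156 tested miRNAs. The adjusted p-values were 0.0725 and 0.0982 in limma, so neither difference passed the threshold of 0.05. miR-145 had the same order of groups on this scale but lay near the detection limit, and none of its differences passed. It was tested only because all 3 lithium plus MDI arrays detected it, so its order of groups supports nothing. After scaling, lithium alone left miR-143 within the spread of the preadipocyte arrays, with a log2 difference of 0.06. Its 95% interval spans more than a log2 unit, so a moderate change in either direction was not detectable with 3 arrays a group. Before scaling all 3 lithium arrays lay below all 3 preadipocyte arrays, but there the median difference of all tested miRNAs was -0.70.

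The arrays detected 126 to 178 miRNAs each, and 108 miRNAs on all 12. Of the 5 mesenchymal markers listed for the labelled line (miR-199a-3p, miR-199a-5p, miR-214, miR-21 and miR-125b-5p), 5 were detected on every array. None of the 4 striated muscle, 6 blood, or 3 liver and endothelium markers was detected on any array, while 1 of 6 epithelial markers (miR-205) and 1 of 6 neural markers (miR-128) were detected on some arrays but not on all. The arrays lay on 2 slides: slide 1 held the 3 preadipocyte arrays and MDI array 1, and slide 2 held all the others. For preadipocytes against lithium or lithium plus MDI cells, the slide and the group cannot be told apart without a model that borrows the slide difference from the MDI arrays. In an earlier analysis of these files 3 arrays (preadipocytes 3, lithium 1 and lithium plus MDI 3) resembled another group more than their own, and results that change without them are given with and without them. Because they were picked by their likeness to other groups, leaving them out makes the groups more distinct, and calls over all tested miRNAs rise (for lithium plus MDI against lithium from 0 to 88 of 156, or 56.4%), so a pass without them supports nothing. A pass without only 1 of them is open to the same limit.

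Each member was read by 2 probes of 10 spots each. Both miR-143 probes were well above background on 12 of 12 arrays, and their scaled signals ran together over the 12 arrays (Pearson r = 0.998, a description of the same libraries read by related probes). Spots of the brighter miR-143 probe varied by 1.23% to 5.30% (coefficient of variation) within an array. The brighter miR-145 probe was well above background on 8 of 12 arrays: 2 preadipocyte, 1 MDI, 2 lithium and 3 lithium plus MDI arrays. Its spots varied by 4.93% to 20.2%. The dimmer miR-145 probe was well above background on 2 arrays and was at the floor on 10 after scaling, with spots varying by up to 65.0%. miR-145 thus entered the test only because all 3 lithium plus MDI arrays detected it, the group where it was highest, and that it was tested supports no statement on its direction. The passenger strand miR-145* had 4 probes and was detected on 0 of 12 arrays, while the array's annotation holds no entry named miR-143*.

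In scanner units before any scaling, the brighter miR-143 probe gave 170, 205 and 188 on the preadipocyte arrays 1 to 3. The MDI arrays gave 177, 146 and 110, and the lithium arrays gave 87.3, 143 and 142. The lithium plus MDI arrays gave 199, 256 and 287. The lithium plus MDI arrays held the brightest values of the series apart from preadipocyte array 2, which lay between lithium plus MDI arrays 1 and 2, and lithium array 1 was the dimmest. The mean signal was 187 ± 17.5 (SD, n = 3) for preadipocytes, 144 ± 33.6 for MDI cells, 124 ± 31.8 for lithium cells and 247 ± 44.3 for lithium plus MDI cells.

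The arrays differed in overall brightness, so each was divided by the 75th percentile of the 181 probes detected on all 12 arrays. This divisor averaged 619 ± 144 scanner units (SD, n = 3) for preadipocytes, against 330 ± 59.9 for MDI cells, 380 ± 55.0 for lithium cells and 379 ± 107 for lithium plus MDI cells. The preadipocyte arrays were thus the brightest group, and scaling lowered them relative to the others. Why those arrays were brighter was not tested.

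After scaling, the log2 level of miR-143 was -1.57, -1.49 and -2.05 on the preadipocyte arrays and -0.58, -1.39 and -1.65 on the MDI arrays. It was -1.86, -1.52 and -1.54 on the lithium arrays and -0.41, -0.63 and -0.73 on the lithium plus MDI arrays. MDI array 1, the MDI array of slide 1, stood well above the other MDI arrays and inside the lithium plus MDI range. The group means were -0.59 ± 0.16 (SD, n = 3) for lithium plus MDI, -1.21 ± 0.56 for MDI, -1.64 ± 0.19 for lithium and -1.70 ± 0.30 for preadipocytes. Neighbours in this order overlapped in each case, and none of the neighbouring pairs passed the test. Without scaling the order was lithium plus MDI, preadipocytes, MDI and lithium, so lithium plus MDI was highest on both scales and the place of preadipocytes depended on the scaling.

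**Figure D1:**
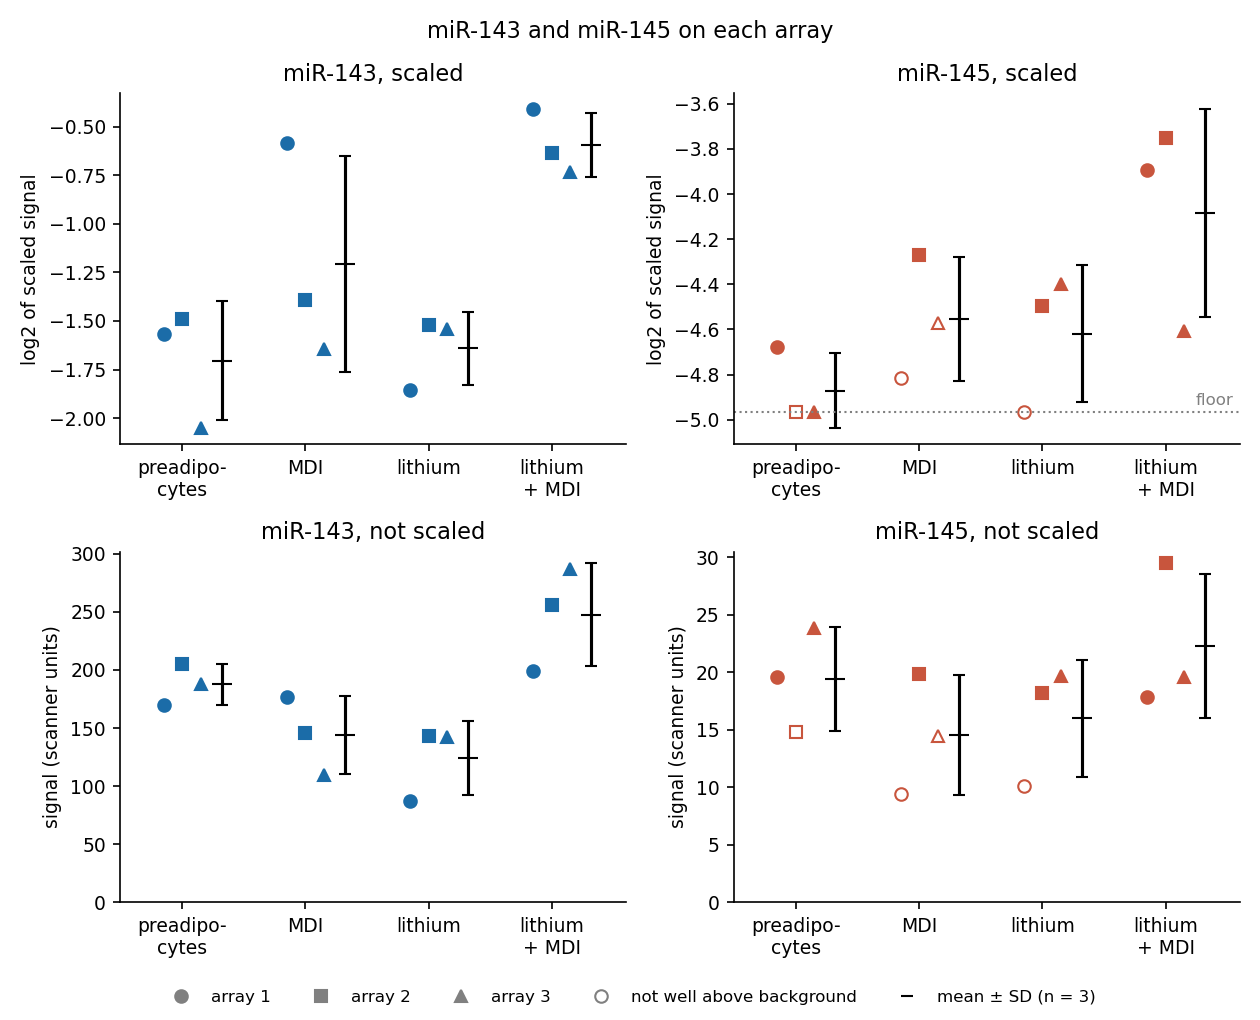
Level of miR-143 (left) and miR-145 (right) on each of the 12 arrays, as the log2 of the scaled signal (top; the dotted line is the floor of -4.97) and as the unscaled probe signal in scanner units (bottom), with the mean ± SD of 3 arrays beside each group and open symbols where the probe was not well above background. miR-143 is highest in lithium plus MDI cells on both scales, while preadipocytes stand lowest when scaled and second highest when not.

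The first question was what MDI induction did to miR-143 in cells that also received lithium. Against lithium cells, lithium plus MDI cells lay 1.05 higher on the log2 scale (2.07-fold, 95% interval 0.40 to 1.69, limma adjusted p = 0.0725), and the groups did not overlap. Among all 156 tested miRNAs 0 (0%) passed the threshold in this comparison, 48 had an unadjusted p under 0.05, and the median difference was 0.40. Only 9 tested miRNAs had a larger positive difference than miR-143, while 41 (26.3%) had all 3 lithium plus MDI arrays above all 3 lithium arrays, so the lack of overlap was common. The dimmer miR-143 probe gave 1.08.

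Both groups of this comparison lay on slide 2. Within slide 2 the difference was 1.05 with an adjusted p of 0.0287, where 9.62% of all tested miRNAs passed. With the slide as a fixed term the adjusted p was 0.0303, with 6.41% passing. The difference was positive in all 31 settings run, from 0.55 to 1.12, and passed in 9 of them, which share arrays and are not separate tests. Leaving out preadipocyte array 3 (adjusted p = 0.048), MDI array 1 (0.0303) or lithium plus MDI array 3 (1.12, 0.0294) brought it past the threshold. In these settings 15.4%, 6.41% and 24.4% of all tested miRNAs passed. Without the 3 arrays named above the difference was 1.01 (0.022), where 56.4% of all tested miRNAs passed. With the authors' deposited table it was smallest, at 0.55.

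MDI induction without lithium gave a miR-143 difference of 0.50 against preadipocytes (SE 0.30, 95% interval -0.15 to 1.14, adjusted p = 0.372), and the groups overlapped. In this comparison 5 of 156 tested miRNAs (3.21%) passed, 24 (15.4%) had all 3 MDI arrays on top, and 37 had a larger positive difference than miR-143. Within slide 1, which holds 3 preadipocyte arrays and 1 MDI array, the difference was 1.12 (adjusted p = 0.23, the lone MDI array being assumed to vary like the preadipocyte arrays). It was -0.40 without scaling and -0.31 with the 75th percentile taken over all mouse probes, while the median of all tested miRNAs went from 0.10 to -0.70 and -0.64. Relative to that median, miR-143 lay higher in MDI cells in each of the 31 settings run, by 0.11 to 1.05. Its direction against preadipocytes therefore changed with the scale, and its place above the median miRNA did not.

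Lithium without MDI gave a miR-143 difference of 0.06 against preadipocytes (95% interval -0.58 to 0.71, adjusted p = 0.881), and after scaling these groups overlapped as well. Here 10 of 156 tested miRNAs (6.41%) passed and 27 (17.3%) had all 3 lithium arrays on top. The sign was negative in several settings, at -0.63 without scaling and -0.11 without preadipocyte array 3. With the slide as a fixed term the value was 1.00 (adjusted p = 0.343). The data thus gave no stable direction for miR-143 under lithium alone.

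Lithium added to MDI gave a miR-143 difference of 0.61 against MDI alone (95% interval -0.03 to 1.26, adjusted p = 0.751), with MDI array 1 inside the lithium plus MDI range. Here 0 of 156 tested miRNAs (0%) passed in limma, 6 had an unadjusted p under 0.05, and 18 (11.5%) had all 3 lithium plus MDI arrays on top. Only 13 tested miRNAs had a larger positive difference. Within slide 2, which leaves out MDI array 1, the difference was 0.93 (adjusted p = 0.208).

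Lithium plus MDI cells lay 1.11 above preadipocytes in miR-143 (2.16-fold, 95% interval 0.47 to 1.76, adjusted p = 0.0982), without overlap. In this comparison 2 of 156 tested miRNAs (1.28%) passed, 22 (14.1%) had all 3 lithium plus MDI arrays on top, and 8 had a larger positive difference than miR-143. The value passed without MDI array 1 (adjusted p = 0.0315), where 1.92% of all tested miRNAs passed. It also passed without lithium plus MDI array 3 (1.18, 0.0265, with 23.1% passing) and without the 3 arrays (1.01, 0.0435, with 25% passing). It was 0.06 with the 75th percentile over all mouse probes (adjusted p = 0.893), 0.39 without scaling (0.410) and 2.05 with the slide as a fixed term (0.0549). MDI cells lay 0.43 above lithium cells (adjusted p = 0.343), and 0.12 within slide 2. Those groups overlapped in both members, while 29 of 156 tested miRNAs (18.6%) had all 3 MDI arrays above all 3 lithium arrays, 0 (0%) passed in limma and 33 had an unadjusted p under 0.05.

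Taken over both lithium conditions, MDI-treated arrays lay 0.77 above the others in miR-143 (SE 0.21, 95% interval 0.32 to 1.23, adjusted p = 0.0552). The 6 MDI-treated arrays spanned -1.65 to -0.41 and the other 6 spanned -2.05 to -1.49, so the ranges overlapped, and an exact permutation test of 6 against 6 gave a two-sided unadjusted p of 0.0152. In that average 5 of 156 tested miRNAs (3.21%) passed, and 14 had a larger positive difference. It was 0.29 with the 75th percentile over all mouse probes (adjusted p = 0.519), 0.31 without scaling (0.328) and 0.45 with normexp background correction (0.989). It passed with the slide as a fixed term (1.08, adjusted p = 0.0295), where 2.56% of all tested miRNAs passed. But there MDI against preadipocytes rests on MDI array 1 alone, which stood above the other MDI arrays. The average also passed without lithium plus MDI array 3 (0.81, 0.0189) and without the 3 arrays (0.67, 0.0315), where 26.9% and 42.9% of all tested miRNAs passed. The interaction, the MDI difference with lithium minus that without it, was 0.55 (SE 0.42, adjusted p = 0.486), so a larger MDI difference under lithium was not shown. It was 1.42 without scaling (adjusted p = 0.0142), where 60 of 156 tested miRNAs (38.5%) passed and the median of all 156 was 1.04. The miR-143 interaction was -0.07 with the slide as a fixed term.

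**Figure D2:**
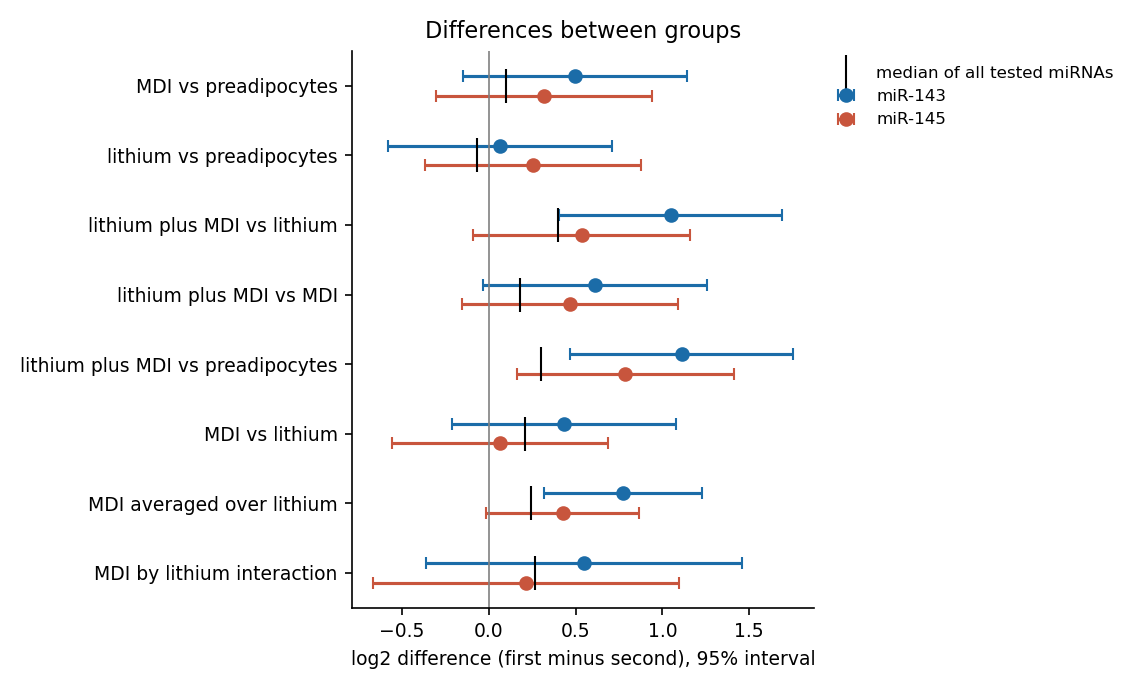
Log2 difference of miR-143 (blue) and miR-145 (red) in the 8 comparisons, first group minus second, with 95% intervals from limma, and a black tick at the median of all 156 tested miRNAs. The miR-143 interval stays above 0 for lithium plus MDI against lithium (0.40 to 1.69), against preadipocytes (0.47 to 1.76) and for MDI averaged over lithium (0.32 to 1.23), and in each of the 8 comparisons miR-143 lies above the tick.

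miR-145, the second miRNA of the transcript, was dim throughout. Its brighter probe gave 19.6, 14.8 and 23.8 scanner units on the preadipocyte arrays and 9.38, 19.8 and 14.4 on the MDI arrays. The lithium arrays gave 10.1, 18.2 and 19.6 and the lithium plus MDI arrays 17.8, 29.5 and 19.5. All 4 groups overlapped on this scale. After scaling, preadipocyte arrays 2 and 3 were at the floor of -4.97 and preadipocyte array 1 was at -4.68. Preadipocyte array 3 was well above background and reached the floor only through its large divisor.

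The scaled log2 level of miR-145 was -4.82, -4.27 and -4.57 on the MDI arrays, -4.96, -4.50 and -4.40 on the lithium arrays and -3.89, -3.75 and -4.61 on the lithium plus MDI arrays. The means were -4.08 ± 0.46 (SD, n = 3) in lithium plus MDI, -4.55 ± 0.27 in MDI, -4.62 ± 0.30 in lithium and -4.87 ± 0.17 in preadipocytes. This is the order seen for miR-143, with overlap between each pair of neighbours. The filter favoured lithium plus MDI as the highest group of miR-145, so the shared order supports nothing. Without scaling the miR-145 order was lithium plus MDI, preadipocytes, lithium and MDI, which is not the unscaled order of miR-143. Lithium plus MDI array 3 was the low array of its group for both miRNAs.

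The largest miR-145 difference was lithium plus MDI against preadipocytes, 0.79 (95% interval 0.16 to 1.41, adjusted p = 0.216), the only comparison in which its groups did not overlap. The floor raised the values of preadipocyte arrays 2 and 3 and so reduced this difference. Since miR-145 was tested only through its highest group, the direction of this difference supports nothing. It was 1.05 without lithium plus MDI array 3, the low array of that group (adjusted p = 0.0196, with 23.1% of all tested miRNAs passing). It was 1.00 without the 3 arrays (0.0119, with 25% passing) and -0.14 with the 75th percentile over all mouse probes. Against lithium cells, lithium plus MDI cells lay 0.53 higher (adjusted p = 0.221), against a median of 0.40 for all tested miRNAs. That value passed without lithium plus MDI array 3 (0.80, adjusted p = 0.0474) and without the 3 arrays (0.62, 0.043), where 24.4% and 56.4% of all tested miRNAs passed.

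The other miR-145 differences were smaller. MDI cells lay 0.32 above preadipocytes (adjusted p = 0.493), lithium cells 0.25 above preadipocytes (0.608), lithium plus MDI cells 0.47 above MDI cells (0.751) and MDI cells 0.07 above lithium cells (0.889). Averaged over lithium, the MDI difference was 0.43 (adjusted p = 0.167, exact permutation p = 0.0671), and the interaction was 0.22 (adjusted p = 0.781). The sign against preadipocytes turned under several scalings, for example -0.23 for MDI and -0.13 for lithium without scaling. Within slide 1 MDI against preadipocytes was 0.05, and within slide 2 lithium plus MDI against lithium was 0.53 (adjusted p = 0.211).

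**Figure D3:**
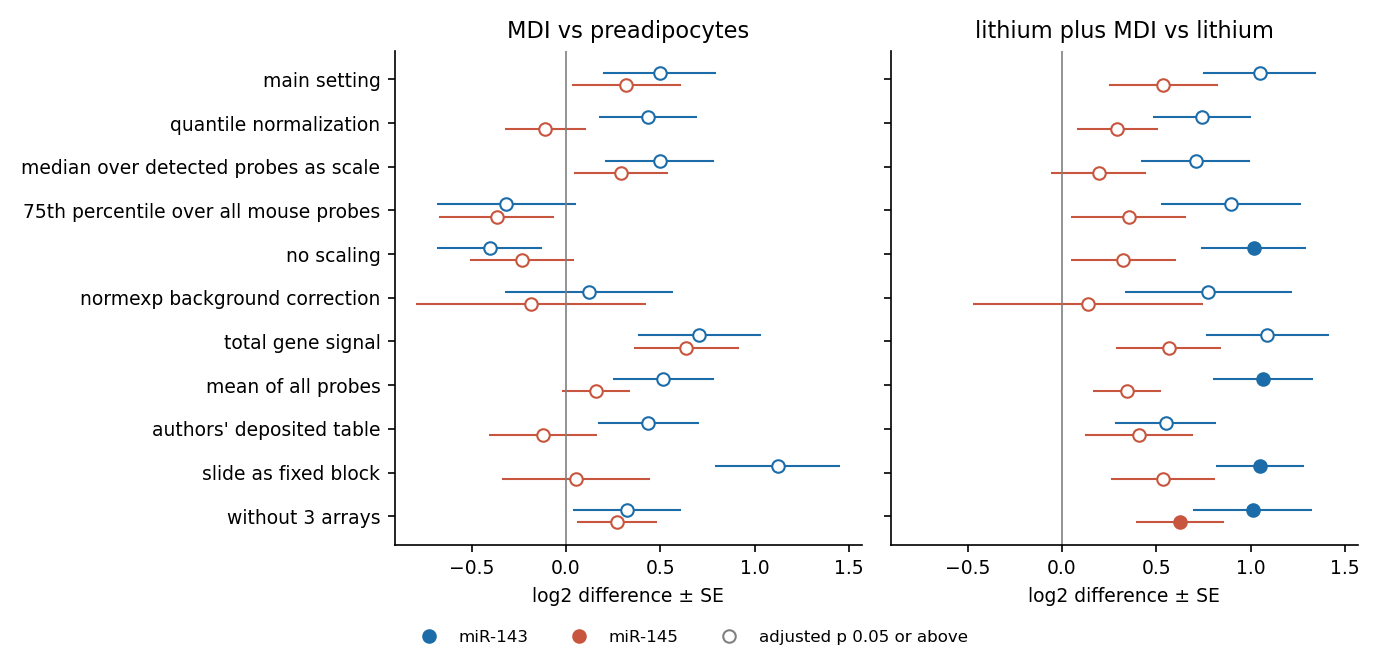
Log2 difference ± SE of miR-143 (blue) and miR-145 (red) for MDI against preadipocytes (left) and lithium plus MDI against lithium (right) under 11 ways of processing the arrays, filled where the adjusted p was under 0.05. On the left both miRNAs cross 0 with the scaling (miR-143 from -0.40 without scaling to 0.71 with the total gene signal, and 1.12 with the slide as a fixed term), and on the right miR-143 stays between 0.55 and 1.09 in the settings shown.

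Over the 12 arrays the scaled levels of the pair correlated with Pearson r = 0.61 (permutation p = 0.0357) and Spearman rho = 0.53 (permutation p = 0.0834). This was the only relation between the levels of a pair of miRNAs that was tested. The permutations moved arrays between groups, so the p-values over all arrays also reflect differences between group means. Since miR-145 was tested only through lithium plus MDI, where miR-143 was highest too, a positive r over all groups was favoured and supports nothing. The scaled miR-145 values of preadipocyte arrays 2 and 3 were also set to the floor. Without the 2 arrays farthest from the median of miR-143 (lithium plus MDI 1 and MDI 1) r was 0.71 (permutation p = 0.0262), and within the 8 arrays of slide 2 it was 0.75 (exact permutation p = 0.0306). Once each array was set against the mean of its own group, r was 0.04 (permutation p = 0.900), a value that leaves a relation within groups undecided. Leaving out MDI array 1, where miR-143 was high and miR-145 low, gave an r over all groups of 0.79 (permutation p = 0.00496). Both values of an array share its divisor, and r was 0.16 after quantile normalization and 0.10 in the authors' deposited table, where neither passed. Leaving out preadipocytes 3, lithium 1, lithium plus MDI 1 or lithium plus MDI 2 alone gave r of 0.48 to 0.56, with permutation p-values of 0.0732 to 0.132.

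A ratio of the pair within an array does not depend on the divisor. The log2 of miR-145 over miR-143, without the floor, changed by -0.51 from lithium to lithium plus MDI cells, and these groups did not overlap (exact permutation p = 0.1, the smallest that 3 arrays against 3 can give, and 0.7 after Benjamini-Hochberg adjustment over 7 comparisons). They nearly met, at -3.107 on lithium array 1, where miR-145 was not well above background, and -3.116 on lithium plus MDI array 2. The other pairwise changes ran from -0.37 to 0.31, with exact permutation p-values of 0.2 or above, and 6 MDI-treated arrays differed from the other 6 by -0.28 (exact permutation p = 0.316). The ratio was lowest on MDI array 1, where miR-143 was high and miR-145 was not well above background. Since different probes bind with different strength, the size of the ratio itself says nothing of which miRNA was more abundant.

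**Figure D4:**
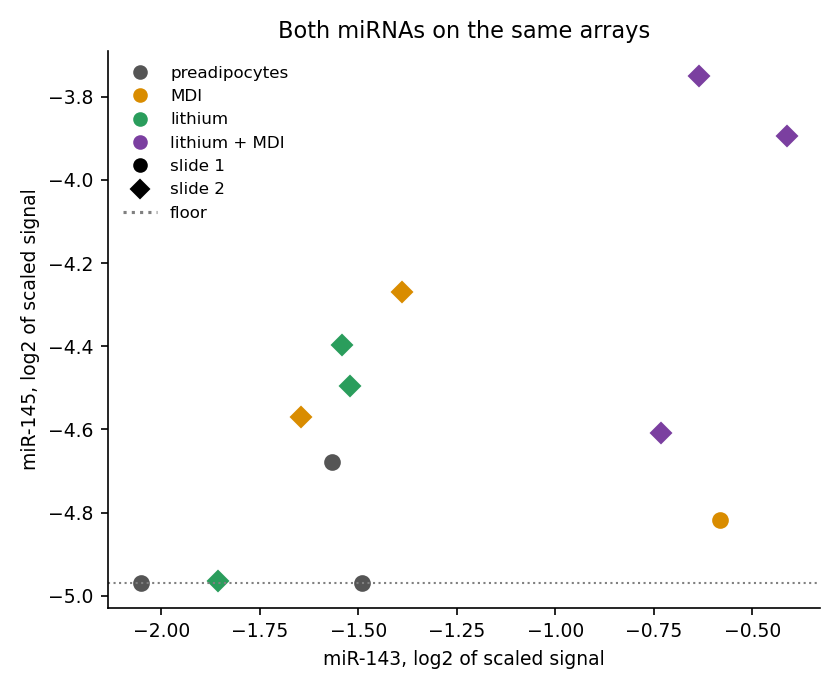
Scaled log2 level of miR-145 (vertical) against miR-143 (horizontal) on the 12 arrays, coloured by group, with circles for slide 1 and diamonds for slide 2 and the floor of -4.97 dotted. The lithium plus MDI arrays lie to the right and, but for array 3, at the top, while MDI array 1 pairs a high miR-143 with a low miR-145.

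The miRNAs whose levels ran most like miR-143 over the 12 arrays, among 155 compared, were miR-298 (Pearson r = 0.92), miR-149 (0.90) and miR-106b (0.86), and miR-145 stood at rank 24. miR-298, itself close to the floor, had means of -4.10 ± 0.18 (SD, n = 3) in lithium plus MDI, -4.52 ± 0.47 in MDI, -4.83 ± 0.12 in preadipocytes and -4.93 ± 0.05 in lithium cells. It differed by 0.84 between lithium plus MDI and lithium cells (adjusted p = 0.0747). For miR-145 the closest were miR-16 (0.82), miR-30e* (0.77) and miR-374 (0.76), and miR-143 stood at rank 20. miR-16 differed by 0.30 between lithium plus MDI and lithium cells (adjusted p = 0.396). These values rank patterns on arrays that share their divisors and are descriptions.

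The miRNAs of mesenchymal and smooth muscle cells were the natural company of the pair. Of the 24 listed, 20 were tested, and averaged over lithium 15 of them lay higher with MDI, with a median difference of 0.41 against 0.24 for all tested miRNAs. In this average 1 passed upwards, miR-27a at 0.78 (adjusted p = 0.0291), and 1 downwards, miR-10b, a miRNA encoded in a Hox cluster, at -1.07 (0.0452). Over all tested miRNAs 5 of 156 (3.21%) passed in it. The list median in this average was -0.058 without scaling and -0.099 with the 75th percentile over all mouse probes. The median of all tested miRNAs was -0.20 and -0.23 there, so the direction of the list depended on the scale. miR-27a, reported to hold back fat cell formation, was also past the threshold for lithium plus MDI against preadipocytes (1.31, adjusted p = 0.0135), and miR-10b for MDI against preadipocytes (-1.87, 0.0263). With the slide as a fixed term these were 1.68 (adjusted p = 0.0549) and -1.45 (0.193), and miR-10b in the MDI average was -0.86 (0.146), so those calls were lost. miR-27a in the average stayed past the threshold there (0.90, 0.0295), where MDI against preadipocytes rests on MDI array 1 alone. It also passed with quantile normalization, the total gene signal and the mean of all probes. It did not pass without scaling (0.31, 0.328), with the 75th percentile over all mouse probes (0.29, 0.462), the median as divisor (0.61, 0.115), normexp (0.81, 0.637) or the authors' table (0.69, 0.056). With 1 array left out it passed in some fits, as without lithium array 1 (0.81, 0.0119). In others it did not, as without lithium array 2 (0.76, 0.083) or lithium plus MDI array 1 (0.76, 0.107). For lithium plus MDI against lithium 17 of the 20 lay higher, with a median of 0.68 against 0.40 for all tested miRNAs. None of the 20 passed, and 0 of all 156 did. miR-143 at 1.05 lay above the median of the list and miR-145 at 0.53 below it.

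Among miRNAs reported to promote fat cell formation, miR-143 lay on the other side from most. Of 17 listed without miR-143, 13 were tested, and averaged over lithium 4 of them lay higher with MDI (median -0.37), against 0.77 for miR-143. For all tested miRNAs the median was 0.24, and 5 of 156 (3.21%) passed. The promoting miRNA that passed was the hypoxia-responsive miR-210, which lay at -1.27 (adjusted p = 0.0452), and at -0.95 (0.146) with the slide as a fixed term. It also missed the threshold with the total gene signal (-1.14, 0.0703), the mean of all probes (-1.17, 0.0636) and without a floor (-1.27, 0.063). It passed with quantile normalization (-1.55, 0.0439) and without scaling (-1.74, 0.0484). Of 13 miRNAs reported to inhibit fat cell formation, listed without miR-145, 10 were tested, 7 lay higher with MDI (median 0.37) and miR-27a passed, while miR-145 was at 0.43. The inhibiting median turned to -0.094 without scaling and -0.11 with the 75th percentile over all mouse probes. The promoting median stayed negative there (-0.84 and -0.86). The inhibiting miRNA miR-155 passed for lithium against preadipocytes, at -1.42 (adjusted p = 0.0382), but those groups lie on different slides and with the slide as a fixed term it did not pass (-1.49, 0.364). Nor did it pass with the total gene signal (-1.33, 0.0615), while it did with quantile normalization (-1.36, 0.0178). The lists share members and were drawn from the literature. Without the 3 arrays 11, 9 and 6 members of the mesenchymal, promoting and inhibiting lists passed in the MDI average, where 67 of all 156 tested miRNAs (42.9%) passed.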

How the data were processed

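miRNA levels were measured on 12 single-colour Agilent arrays in 4 groups of 3. The deposited intensity of each spot is Agilent Feature Extraction's background-subtracted signal, not normalized between arrays; the file headers name version 10.5.1.1 and the submitters' processing notes 9.5.3. The log2 table that the authors also deposited (steps and centring not stated; column medians 0.00175 to 0.0958) tracked log2 scanner signals at r of 0.997 or above and was used as an alternative only.

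Outlier spots were left out and spots of a probe averaged. Detection required most kept spots of a probe to be flagged well above background. Each of the arrays was divided by its 75th percentile over 181 probes detected on all arrays, floored at the 5th percentile of detected values, and put on a log2 scale. Each miRNA took the value of its brightest probe and was tested if detected on all 3 arrays of a group; 8.71% of tested values lay at the floor, and no spot was saturated. Groups were compared in limma (version 3.58.1, R 4.3.3) over all 12 arrays without a block (two-sided, Benjamini-Hochberg over 156 miRNAs), and single values with exact permutation tests. The limma fit was tested on simulated data and the permutation tests on small made-up sets of values. The outlier, detection, scaling, floor and probe steps were not tested in this way. Named were the members, the 3 tested miRNAs most correlated with each, and list members past the threshold. Members and lists were chosen with earlier results of these data known. Alternatives covered background correction, scaling, floor, filter, probes, slide, replicate block and left-out arrays. Arrays give no counting depth; their number limits the precision.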

Additional observations from a re-analysis of the deposited data

How the results depend on the processing

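For miR-143, 121 values kept direction and side of the threshold under other settings, 7 turned and 11 passed. For miR-145 114 did, 22 turned and 3 passed. Causes of the changes were not tested. Taking the 75th percentile over all mouse probes turned MDI against preadipocytes to -0.31 (miR-143) and -0.37 (miR-145), lithium against preadipocytes to -0.83 and -0.49, and, for miR-145, lithium plus MDI against preadipocytes to -0.14 and the MDI average to -0.0072. No scaling gave -0.40 and -0.23 for MDI and -0.63 and -0.13 for lithium against preadipocytes, and -0.10 for MDI against lithium in miR-145. Past the threshold in miR-143 were then 1.02 for lithium plus MDI against lithium (adjusted p = 0.0483) and 1.42 for the interaction. In these 6.41% and 38.5% of all tested miRNAs passed. Normexp background correction turned lithium against preadipocytes to -0.20 (miR-143) and -0.34 (miR-145), and for miR-145 MDI against preadipocytes to -0.18, lithium plus MDI to -0.021 against MDI and -0.21 against preadipocytes, and the MDI average to -0.024. In miR-145, quantile normalization gave -0.11 for MDI and -0.021 for lithium against preadipocytes and -0.089 for MDI against lithium, where the authors' deposited table gave -0.12, -0.094 and -0.025. The miR-145 interaction was -0.071 with the total gene signal and -0.10 with the median over detected probes as divisor, a setting added after the data were seen. The mean of all probes brought miR-143 for lithium plus MDI against lithium past the threshold (1.06, adjusted p = 0.0427), where 5.77% of all tested miRNAs passed. With the slide as a fixed term that value was 1.05, as it was without MDI array 1, which is the same fit for it. The MDI average was 1.08, and both were past the threshold, with 6.41% and 2.56% of all tested miRNAs passing under the slide term. The miR-143 interaction was then -0.074 and miR-145 for lithium against preadipocytes -0.14. Within slide 2, which also lacks MDI array 1, miR-143 for lithium plus MDI against lithium was 1.05 (adjusted p = 0.0287, with 9.62% passing).

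Deviations from the group means on same-numbered arrays correlated from -0.05 to 0.48, -0.38 to 0.31 and -0.48 to 0.48 for numbers 1, 2 and 3. Differently numbered arrays were not compared in this way, so whether replicate numbers pair the arrays was not settled. With the replicate number as a block, miR-143 passed for lithium plus MDI against lithium (1.05, adjusted p = 0.044) and for the MDI average (0.77, 0.0497). With this block 10.3% and 5.77% of all tested miRNAs passed in these comparisons.

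Without the 3 arrays that resembled another group, values past the threshold were 1.01 (miR-143) and 0.62 (miR-145) for lithium plus MDI against lithium, 1.01 and 1.00 against preadipocytes, and 0.67 and 0.45 for the MDI average. In these 56.4%, 25% and 42.9% of all tested miRNAs passed. Lithium against preadipocytes in miR-143 was then -0.0029 and MDI against lithium in miR-145 was -0.11. With 1 array left out, miR-143 ranged from 0.94 to 1.12 for lithium plus MDI against lithium, 0.94 to 1.22 against preadipocytes, 0.62 to 0.88 for the MDI average and -0.11 to 0.17 for lithium against preadipocytes. miR-145 ranged from 0.36 to 0.80, 0.62 to 1.05 and 0.34 to 0.56 in the first 3 of these, and from -0.11 to 0.20 for MDI against lithium.

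The miR-145 to miR-143 ratio turned for MDI against preadipocytes (-0.30 to 0.39 with 1 array left out, 0.10 without the 3), for lithium against preadipocytes (-0.14 with normexp, -0.38 in the authors' table), for lithium plus MDI against MDI (-0.59 to 0.089, 0.030 in the authors' table, 0.046 without the 3) and against preadipocytes (0.15 without the 3), and for MDI against lithium (-0.60 to 0.077, 0.077 within slide 2). The correlation of the pair was 0.16 with quantile normalization, 0.50 over all mouse probes, 0.54 without scaling, 0.10 in the authors' table, 0.53 without the 3 arrays and 0.48 to 0.79 with 1 left out. Members past the threshold in the MDI average went, for the mesenchymal, promoting and inhibiting lists, to 0, 0 and 0 with normexp (0 of all 156 tested) and 11, 9 and 6 without the 3 arrays (67 of 156, 42.9%). The mesenchymal count was 1 without scaling, with the slide term, without a floor and with the median as divisor (2, 4, 2 and 4 of all 156). The promoting count was 7 over all mouse probes (17 of all 156) and 0 with the slide term or without a floor. The inhibiting count was 0 without scaling and with the median. Signal over background limits miR-145, which was detected on 8 of 12 arrays.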
